A study of Pimephales promelas with 26 samples.

Results

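In fathead minnow larvae, 150 transcripts were taken whose highest library at 47.2 µg/L fluoxetine lay furthest below the mean of every other group. They were chosen by these same measurements. Each level was expressed as L, the log2 of CPM + 1, where CPM is the count scaled to a library total of 1000000. For each messenger RNA model with a mean of 10 CPM or more, the highest L of the 3 libraries at 47.2 µg/L was subtracted from the lowest of the 5 group means of L outside 47.2 µg/L. The 150 largest values of this gap were taken, after the rule had set 2 transcripts aside. They came from 15082 eligible transcripts in a table of 57299. Of the 150 transcripts, 88 carried a gene symbol, 21 a locus number only, and 41 were not paired with a gene by the reference gene table. The 109 paired transcripts belonged to 109 different genes.

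Messenger RNA was sequenced from whole larvae of Pimephales promelas, a small cyprinid fish, each library coming from a pool of 20 animals at 7 days after fertilization. Fluoxetine, an antidepressant that inhibits the serotonin transporter, was given in the water from 6 h after fertilization, with part of the test solution renewed each day, at 23 °C. The groups were a water control (n = 5) and measured concentrations of 0.19 (n = 3), 0.74 (n = 5), 3.38 (n = 5), 10.2 (n = 5) and 47.2 µg/L (n = 3). Replicates were lettered A to E, and the groups of 3 held A, B and C. The labels name no strain, sex or genetic modification.

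Many of the named transcripts encode proteins of organs that take up and process nutrients. Enterocytes of the fish intestine carry peptidases and lipid-handling enzymes on their brush border, move fatty acids and retinol with small binding proteins, and, in the posterior intestine, recover bile acids and engulf luminal protein through endocytic receptors. The liver makes bile acids from cholesterol and secretes most plasma proteins, and period genes belong to the feedback loop of the circadian clock. In RNA from whole animals, fewer cells of a type and less RNA per cell cannot be told apart.

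Because the gap was computed from the 47.2 µg/L libraries, the low levels there are a description of how the transcripts were selected and support nothing. Their mean CPM at 47.2 µg/L was between 9.8% and 89.8% of the mean in water, with a median of 67.8%. It was under 50% of water for 20 transcripts, between 50% and 75% for 86, and 75% or more for 44. Most of the set was therefore lower by less than 50%. The gap itself was 0.872 log2 units for the first transcript, 0.606 for the second and 0.21 for the one ranked 50, with a median of 0.162. Just inside the limit were elavl3 (0.0929), slc10a2 (0.0924) and an unpaired transcript (0.0921). Just outside it were spire1a (0.0912), tnrc6a (0.0909) and syne2a (0.0904), so the limit fell at no step in the values. All the 47.2 µg/L libraries lay below every water library for 90 of the 150 transcripts, against 4.85% of the eligible transcripts. They lay below all 23 other libraries for 18, and these were all of the 18 eligible transcripts (0.119% of 15082) for which this held. That share is thus made up of chosen transcripts alone and is no separate background. For the median transcript, 3 of the 23 other libraries reached down to the highest 47.2 µg/L library, and for the most overlapping one, 10 did. The transcripts were thus low only at 47.2 µg/L as group means, by construction, and most were not so library by library. The other libraries differed in this respect, with 7 of the transcripts at or below that level in replicate D at 3.38 µg/L and 37 in replicate A at 3.38 µg/L.

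**Figure D1:**
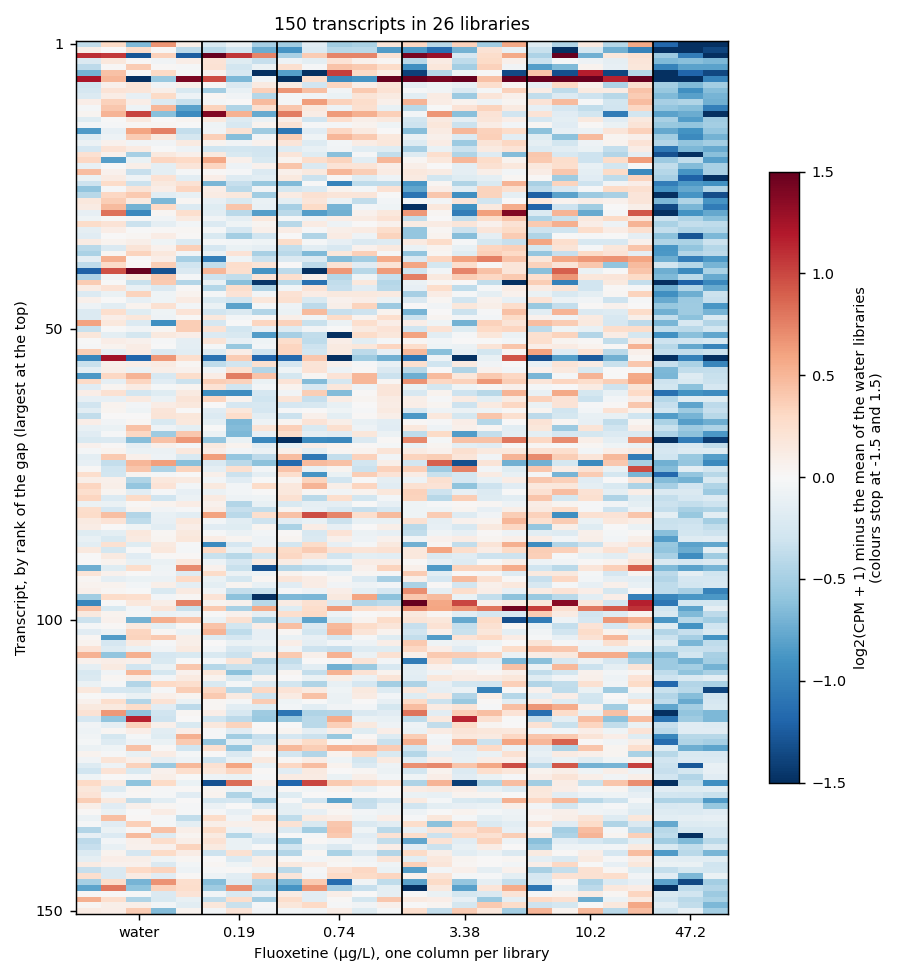
Level of the 150 transcripts (rows, largest gap at the top) in the 26 libraries (columns, grouped by fluoxetine concentration), as log2(CPM + 1) minus the mean of the 5 water libraries. Blue is lower than water and red is higher. The 3 columns at 47.2 µg/L are blue in nearly every row because the rows were chosen for it, while the other columns hold rows that vary widely from pool to pool.

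Of the named transcripts, 54 were sorted into 7 groups by the known role of the gene, after their values had been seen, and 34 were left unsorted. The intestinal group held 15. They ranged from 35.9% of water for mep1ba to 75.2% for slc10a2. Averaged over the 15, the log2 difference from the water mean was between -0.78 and -0.58 in the libraries at 47.2 µg/L, and between -0.29 and 0.19 in the 23 others. Their summed level was 751.4 to 920.4 CPM at 47.2 µg/L and 1141 to 1388.4 CPM in water. Per unit of length, fabp2 (1295 TPM in water), fabp6 (989 TPM) and rbp2a (544 TPM) were the most abundant of them.

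Among proteins of lipid uptake, cd36, which encodes a scavenger receptor for long-chain fatty acids, stood at 34.5, 35.2 and 34.2 CPM in replicates A, B and C at 47.2 µg/L. In water replicates A to E it stood at 47.1, 61.5, 55.5, 52.8 and 59.24 CPM, and the lowest of all 23 other libraries was 41.0 CPM. The groups did not overlap, and the replicates at 47.2 µg/L were close together. The difference from water was -0.67 ± 0.16 on the log2 scale (SE, with an adjusted p of 0.126 in edgeR). The transcript of fabp2, the intestinal fatty acid-binding protein, stood at 282, 206 and 272 CPM, below a lowest of 289, a median of 361 and a highest of 474 CPM in the other libraries. The retinol-binding protein gene rbp2a stood at 128.4 ± 12.8 CPM (SD, n = 3) against 182.0 ± 17.6 CPM in water (SD, n = 5), also without overlap. The monoacylglycerol acyltransferase gene mogat2, which rebuilds triglyceride in the enterocyte, stood at 74.3% of water, and 2 of the other libraries were as low. The brush border phospholipase gene plb1 stood at 27.5, 44.4 and 32.4 CPM, while water ranged from 61.6 to 109 CPM. Its level was also low in single libraries at lower concentrations, with 38.1 CPM in replicate A at 3.38 µg/L and 34.8 CPM in replicate A at 10.2 µg/L.

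Among brush border peptidases and enzymes, ggt1b, a gamma-glutamyltransferase, was the only named transcript of the 150 that edgeR called. A transcript was called when its p, adjusted by Benjamini-Hochberg over the 43837 transcripts tested, was below 0.05. It stood at 11.1, 14.8 and 14.0 CPM at 47.2 µg/L and at 20.2, 28.4, 26.6, 24.4 and 23.1 CPM in water, and no other library fell below 17.0 CPM. The difference from water was -0.87 ± 0.16 on the log2 scale (SE, with an adjusted p of 0.0307 in edgeR). The call held in 20 of the 26 fits that each left out 1 library. It was lost without water replicate B, C, D or E and without replicate A or C at 47.2 µg/L, where the adjusted p reached 0.211. It was also lost when water and 47.2 µg/L were fitted alone, with an adjusted p of 0.258 in edgeR. The meprin subunit gene mep1a.1 stood at 54.4, 42.3 and 52.6 CPM, below a lowest of 62.4, a median of 79.0 and a highest of 91.5 CPM elsewhere. Its partner subunit mep1ba stood at 5.16, 5.4 and 1.4 CPM, but its water libraries were spread from 4.55 to 20.7 CPM and overlapped with those values. The peptidase gene naaladl1 stood at 69.6% of water, the neutral ceramidase gene asah2 at 55.4%, the epithelial adhesion gene tmigd1 at 54.6%, and tmprss15, which encodes the enteropeptidase that activates trypsinogen, at 68.1%. Each of these 4 overlapped with exactly 1 of the 23 other libraries.

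Genes of the posterior intestine were also present. The transcript of fabp6, the ileal bile acid-binding protein, stood at 168, 132 and 112 CPM at 47.2 µg/L and at 222, 233, 243, 224 and 202 CPM in water. Only replicate B at 0.19 µg/L, at 151 CPM, overlapped. The transcript of slc10a2, the apical sodium-dependent bile acid transporter that works in the same cells, stood at 17.5, 14.9 and 11.8 CPM, and water ranged from 17.4 to 20.8 CPM, so the groups overlapped. The endocytic receptor gene lrp2b, a megalin, stood at 54.7, 40.3 and 48.2 CPM and had a lowest of 66.0 CPM in water, while 2 libraries elsewhere reached 50.5 and 51.4 CPM.

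The liver group held 8 transcripts, with a mean log2 difference of -0.74 to -0.42 at 47.2 µg/L and -0.31 to 0.10 in the other libraries. The glycolytic enzyme gene pklr, the liver and red-cell pyruvate kinase, was lowest relative to water, at 32.8, 28.4 and 53.1 CPM against 96.3, 86.1, 57.8, 91.1 and 86.9 CPM. Replicate C was the highest at 47.2 µg/L and replicate C the lowest in water. The transcript of cyp7a1, the rate-limiting enzyme of bile acid synthesis, stood at 27.1, 29.9 and 36.7 CPM and at 37.8, 49.6, 49.4, 56.4 and 55.4 CPM in water, and 1 library at 3.38 µg/L, at 26.6 CPM, was as low. The vitamin D-binding protein gene gc stood at 39.7, 39.0 and 43.3 CPM, with 47.2 to 59.7 CPM in water. It was below every water library but not below all 23 other libraries. Of the secreted coagulation and plasma proteins, f7 (coagulation factor VII) stood at 62.2% of water, serpinf2a (a plasmin inhibitor) at 64.4%, ahsgb (a fetuin) at 73.1% and kng1 (kininogen) at 74.5%. The transcript of f7 did not overlap with any other library, and its difference from water was -0.68 ± 0.15 on the log2 scale (SE, with an adjusted p of 0.0893 in edgeR).

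Creatine synthesis and use was represented by gamt, which makes creatine, and by the muscle creatine kinases ckma and ckmb. The gamt transcript stood at 82.3% of water. The ckma transcript stood at 4243, 4515 and 4723 CPM at 47.2 µg/L and at 4541, 5387, 5583, 5136 and 5805 CPM in water, so the groups overlapped at water replicate A. The ckmb transcript stood at 84.8% of water and atp2a1l, a calcium pump of the sarcoplasmic reticulum, at 89.7%. These 3 muscle transcripts were the most abundant of the set, at 4856, 4777 and 3517 TPM in water, and among the least lowered in proportion.

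**Figure D2:**
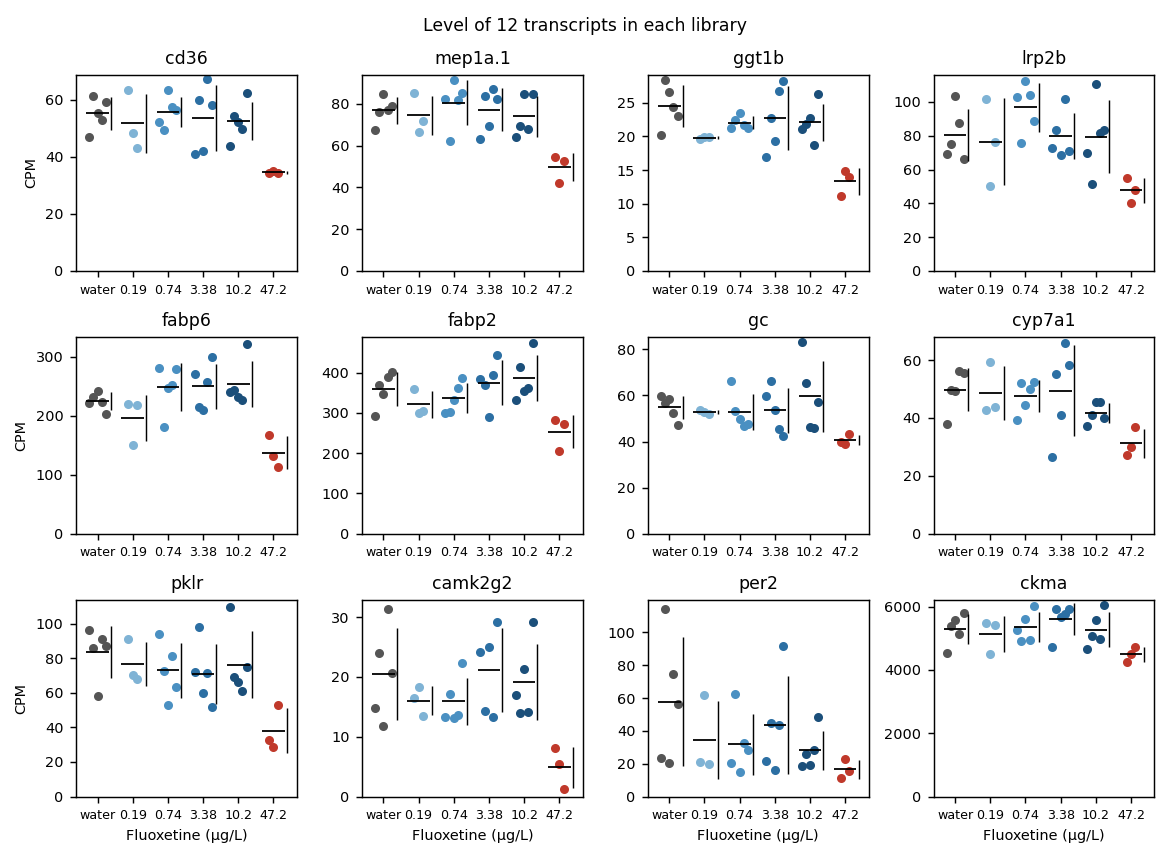
Level in CPM (vertical axis, from 0) of 12 transcripts in each library, by fluoxetine concentration. Each point is 1 pool of 20 larvae, the horizontal bar is the group mean and the thin vertical line is the SD. The 3 points at 47.2 µg/L lie below all others for cd36, mep1a.1, ggt1b, fabp2 and camk2g2, and overlap with several for per2 and ckma.

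The clock group held the period genes per2 and per3, transcriptional repressors of the clock loop, of which per2 is induced by light in zebrafish. The per2 transcript stood at 11.3, 22.8 and 15.7 CPM in replicates A, B and C at 47.2 µg/L and at 23.4, 114, 20.2, 74.9 and 56.5 CPM in water replicates A to E. In every group, replicates A and C were lower than the other replicates. Over the 5 groups outside 47.2 µg/L it ranged from 18.4 to 23.4 CPM in replicates A and from 14.9 to 20.2 CPM in replicates C, but from 26.1 to 114.5 CPM in replicates B. Replicates D and E, which are not among the 47.2 µg/L libraries used here, averaged 44.8 and 56.2 CPM (n = 4 each). Set beside libraries of the same letter, replicates A and B at 47.2 µg/L were below their ranges and replicate C was within its range. The mean in water of 57.9 ± 39.1 CPM (SD, n = 5) thus held letters that 47.2 µg/L lacked. What the letters share is not stated in the labels, and its part in this difference was not tested. The per3 transcript stood at 3.82, 17.6 and 11.8 CPM, with 14.8 to 28.6 CPM in water, and 7 other libraries were as low. Outside 47.2 µg/L it averaged 15.8 CPM in replicates A and 19.3 CPM in C. In replicates B, D and E it averaged 34.7, 26.3 and 29.8 CPM, so the same limit of letters applies. Replicate C at 47.2 µg/L was within the range of its letter (8.1 to 30.7 CPM), while A and B were below theirs.

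The nervous system and eye group held 13 transcripts, with a mean log2 difference of -0.80 to -0.68 at 47.2 µg/L. At 0.19 and 0.74 µg/L it was -0.33 to -0.08, and at 3.38 and 10.2 µg/L it was -0.08 to 0.24, so the members of this group were not level across the lower concentrations. The transcript with the largest gap of all, from camk2g2, a calcium/calmodulin-dependent kinase, stood at 8.05, 5.48 and 1.25 CPM at 47.2 µg/L and at 14.8, 24.0, 11.9, 31.3 and 20.7 CPM in water. No library outside 47.2 µg/L was lower than the 11.9 CPM of water replicate C, and the difference from water was -2.04 ± 0.44 on the log2 scale (SE, with an adjusted p of 0.076 in edgeR). The transcripts of srgap3, a regulator of neurite growth (35.4% of water), grm2b, a glutamate receptor (45.0%), and dnajc6, the auxilin that uncoats synaptic vesicles (49.6%), were also under 50%. The myelin proteolipid gene plp1b stood at 7.68, 9.36 and 7.11 CPM with 8.95 to 17.1 CPM in water. The photoreceptor transporter gene abca4a stood at 14.7, 13.4 and 13.7 CPM with 16.0 to 23.3 CPM in water, but was not below all 23 other libraries. The pan-neuronal RNA-binding protein gene elavl3 stood at 105, 98.2 and 92.9 CPM, well inside its range of 77.0 to 189 CPM elsewhere.

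The 6 of translation and protein folding averaged -0.46 to -0.42 log2 units from water, with pabpc4, a poly(A)-binding protein, lowest at 62.0% and cct8, a chaperonin subunit, highest at 84.9%. The tRNA synthetase cofactor gene aimp1b, at 65.6%, was the member of that group below all other libraries. The 7 of transcription and chromatin averaged -0.47 to -0.41, with ddb2, a DNA damage-binding protein, at 44.2% and nap1l1, a histone chaperone, at 81.1%. The lipid-sensing nuclear receptor gene pparaa stood at 77.1%. Of the unsorted transcripts, agmo, which encodes the alkylglycerol monooxygenase that cleaves ether lipids, varied little between replicates, with 44.9, 44.3 and 46.9 CPM at 47.2 µg/L and 65.2, 66.7, 68.6, 68.9 and 66.8 CPM in water. Its difference from water was -0.56 ± 0.12 on the log2 scale (SE, with an adjusted p of 0.0705 in edgeR). The transcript of maoa, monoamine oxidase, which degrades serotonin, was the only one from the list of serotonin signalling genes. It stood at 63.4, 61.9 and 67.7 CPM and in water at 64.9, 81.5, 79.1, 83.9 and 107 CPM, overlapping with water replicate A and with 4 of the 23 other libraries in all. The fam151a transcript stood at 57.3% of water, without overlap. The lrrc66 transcript stood at 34.2% of water, and 6 other libraries were as low.

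The 34 unsorted transcripts with a symbol ranged from 34.2% to 88.3% of water, and 6 of them lay below all 23 other libraries. Of the 34, tmem86b, which encodes a lysoplasmalogenase, stood at 14.0, 17.4 and 19.5 CPM, with a lowest of 19.9 CPM in water. The protein phosphatase gene ppm1e stood at 17.4, 18 and 16.4 CPM and at 22.5, 21.8, 19.5, 22.8 and 21.0 CPM in water, a small difference between narrow groups. The ependymin-like gene epdl2 stood at 37.1, 22.2 and 17.2 CPM. Its replicate A was well above B and C and just above the lowest library elsewhere (36.3 CPM), so it was not among the 6. Its water libraries ranged from 47.4 to 61.8 CPM. These 3 were picked after their values had been seen. Of the role groups, 5 of the 15 intestinal transcripts, 1 of the 8 in the liver group, 1 of the 13 in the nervous system and eye group and 1 of the 6 in translation and protein folding lay below all 23 other libraries, while 0 did so in muscle, clock, and transcription and chromatin. Below every water library lay 12 of the intestinal group, 8 of liver, 2 of muscle, 0 of clock, 5 of nervous system and eye, 2 of translation and protein folding and 3 of transcription and chromatin. DESeq2 called 9 of the intestinal, 2 of the liver and 4 of the nervous system and eye group, and 0 in each of the other 4 groups. Over all features these shares were 0.119%, 4.85% and 0.942%, and since the choice of transcripts used the same libraries, the counts describe that choice.

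**Figure D3:**
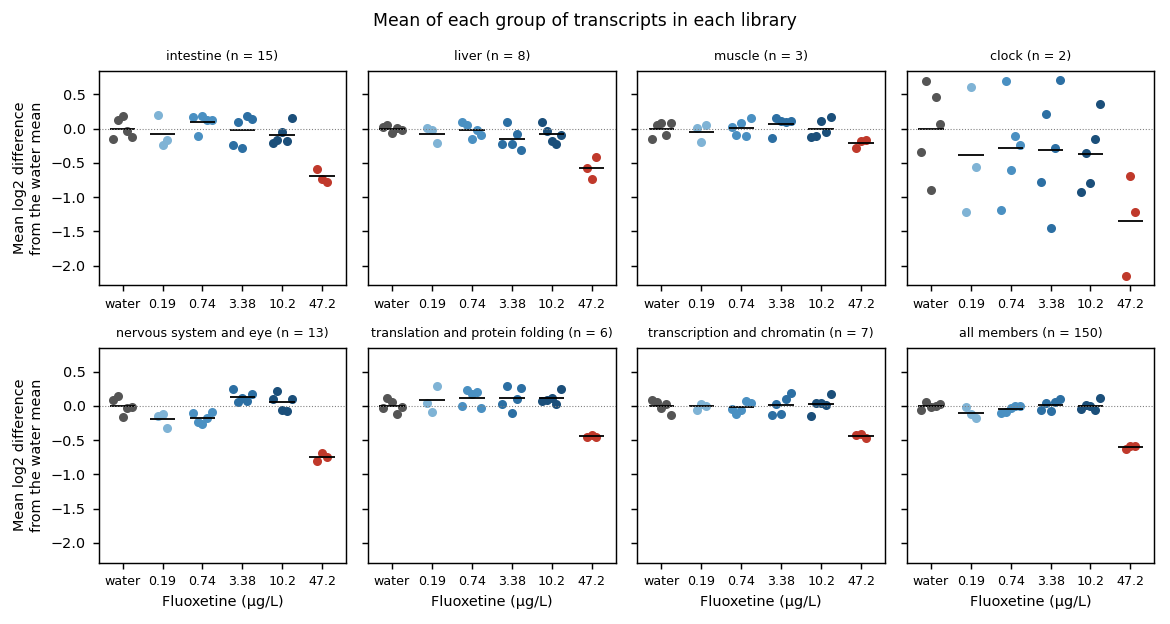
Mean over the transcripts of each role group of the log2(CPM + 1) difference from the water mean (vertical axis), in each library, by fluoxetine concentration. Points are libraries, bars are group means and n is the number of transcripts. The 47.2 µg/L libraries lie below all others in every panel except muscle and clock, where they overlap with other libraries. The transcripts in each panel were chosen for low values at 47.2 µg/L, so this separation describes the choice. The nervous system and eye group is also slightly below water at 0.19 and 0.74 µg/L.

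The 21 transcripts known by a locus number only ranged from 49.8% to 82.9% of water and the 41 unpaired ones from 9.8% to 89.2%, with 7 of these under 50%. The lowest in proportion (XM_039659782.1) stood at 0.112, 0.136 and 1.99 CPM at 47.2 µg/L. It was also at or near 0 in single libraries elsewhere, among them water replicate C, and reached 29.9 CPM in another, so its level varied widely between pools. Of the unpaired transcripts, the second in the ranking (XM_039661919.1) was the other transcript called by edgeR. It stood at 20.5, 17.8 and 30.6 CPM at 47.2 µg/L and at 86.6, 81.9, 98.3, 82.5 and 61.7 CPM in water, and 1 library at 10.2 µg/L stood at 27.04 CPM. The difference from water was -1.84 ± 0.32 on the log2 scale (SE, with an adjusted p of 0.0172 in edgeR). Leaving out replicate A or replicate B of the 47.2 µg/L group ended the call, with an adjusted p of at most 0.129. So did a fit in which water and 47.2 µg/L stood alone, with an adjusted p of 0.16 in edgeR. In all, edgeR called 2 of the 150 lower at 47.2 µg/L, beside 0.0297% of all transcripts tested. DESeq2 called 41 lower, beside 0.942%, and the authors' deposited table listed 49 lower at its adjusted p below 0.05, beside 1.31%. The log2 fold changes were all below 0, with a median of -0.55, a direction that the selection fixed.

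The lower concentrations entered the rule only through the lowest group mean, which keeps out transcripts that were already low there. None of the 150 was called by edgeR at 0.19 µg/L, where 0.0502% of all transcripts were called, or at 0.74 µg/L, where 0.089% were. None was called at 3.38 or at 10.2 µg/L, where 0% of all transcripts were called at each. At an unadjusted p below 0.05 the counts were 2, 6, 6 and 4 in order of concentration, against 8.75%, 8.1%, 4.17% and 5.34% of all transcripts. With the replicate letter as a block, edgeR again called 0 of the 150 at each, while its calls over all transcripts went from 22 to 78 at 0.19 µg/L, from 39 to 103 at 0.74 µg/L and stayed at 0 at the other two. DESeq2 called 0, 0, 1 and 0, the single one being higher than water. Median log2 fold changes over the 150 were -0.04, 0.01, -0.01 and 0.01. At 0.19 µg/L, 96 of the 150 were below water, and this group held the lowest of the 5 other means for 66 transcripts. Water held it for 13, 0.74 µg/L for 25, 3.38 µg/L for 26 and 10.2 µg/L for 20. The 0.19 µg/L group was the only one of these 5 with 3 libraries in place of 5, and a mean of fewer libraries varies more. No share over the eligible transcripts is given here, and the part of group size was not tested. The per2 transcript had the lowest fold change of the set at 10.2 µg/L, at -1.03, and plb1 stood at -0.53 there.

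**Figure D4:**
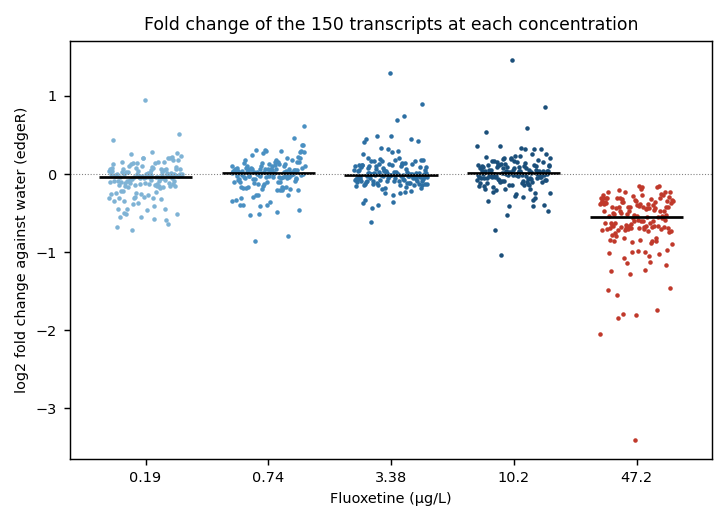
The edgeR log2 fold change against water (vertical axis) of each of the 150 transcripts at each fluoxetine concentration, with the median as a bar. Medians lie between -0.04 and 0.01 at the 4 lower concentrations and at -0.55 at 47.2 µg/L, the contrast used to choose the transcripts. All 5 comparisons share the water libraries.

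The other transcripts of the same genes were not chosen by the rule. Messenger RNA models among them with a mean of 10 CPM or more were open to the same ranking. The other asah2 transcript, with a mean of 26.99 CPM, is an example. The comparison is therefore not independent of the choice, which favours a difference between chosen and other transcripts. How much of the difference comes from the choice was not tested. Of the 109 paired genes, 64 had no other transcript in the table and 45 had at least 1. Summed per gene, these others had a median log2 fold change of 0.02 at 47.2 µg/L, with 21 of 45 below 0, while the chosen transcripts of the 45 genes had a median of -0.63. Over all summed genes the median was 0.02 and 47.1% were below 0. EdgeR called 0 of the 45 lower, beside 0.079% of all summed genes, and DESeq2 also called 0. At an unadjusted p below 0.05, 2 were lower and 2 higher. No share over all summed genes is given beside these unadjusted counts, so they are a description only. For 21 genes, the chosen transcript held under 50% of the gene's counts in water. The camk2g2 transcript held 15.9%, and the others of that gene had a log2 fold change of 0.01. For srgap3 the chosen transcript held 28.2% and the others stood at 57.5 CPM over all libraries with a fold change of 0.07. Kallisto divides reads that match several transcripts of a gene between them, and its part in these differences was not tested.

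Of the genes whose other transcripts moved most, ddb2 stood at -1.33 ± 0.57 (SE; unadjusted p = 0.0287) beside -1.16 for the chosen transcript, serpinf2a at -1.06 ± 1.67 and per3 at -0.99 ± 0.33. The other per3 transcripts summed to 553 ± 78.9 CPM in water (SD, n = 5) and 277 ± 126 CPM at 47.2 µg/L (SD, n = 3), so the chosen transcript held 4.12% of that gene. In the opposite direction, the others of amigo3 stood at 0.75 ± 0.39, those of per2 at 0.74 ± 1.67 and those of tbc1d30 at 3.36 ± 2.06, none with an adjusted p below 0.05 in edgeR. Of the 15 intestinal transcripts, tmigd1 and asah2 had other transcripts, which stood at -0.57 and -0.48. For the rest of that group, the chosen transcript was the only one of its gene in the table.

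**Figure D5:**
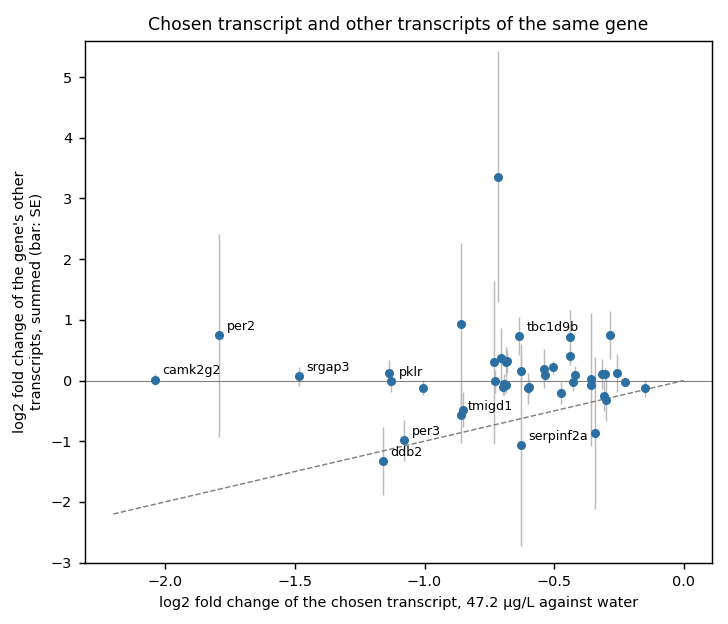
For 44 genes whose other transcripts averaged 1 CPM or more, the log2 fold change at 47.2 µg/L of the chosen transcript (horizontal axis) and of the gene's other transcripts summed (vertical axis, bars are SE). The dashed line marks equal change. Most points lie near 0 on the vertical axis, while ddb2, per3 and tmigd1 lie nearer the dashed line. Only the transcripts on the horizontal axis were chosen for low values at 47.2 µg/L, which favours such a difference.

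The set was compared with other genes of the same tissues, in 25 gene lists that were written with results of these data known. Markers of each tissue were measured in these whole larvae, with 41 of 62 brush border genes, 44 of 65 hepatocyte genes, 40 of 67 skeletal muscle genes and 65 of 75 neuronal genes tested. Together, the lists of brush border, lysosome-rich enterocytes and lipid absorption held 11 of the 150 (7.33%) and 92 of the eligible transcripts (0.61%). The hepatocyte list held 4 (2.67% against 0.265%), skeletal muscle 3 (2% against 0.285%), the circadian clock 2 (1.33% against 0.278%) and neuron and synapse 1 (0.667% against 0.61%). Of the 25 lists, 11 held a chosen transcript. Exocrine pancreas, lysosome, immune cells, cartilage and bone, cell cycle and RNA processing held none. Their shares of the eligible transcripts were 0.0995%, 0.391%, 0.0729%, 0.318%, 0.206% and 0.696%. Shares of this size leave room for few of the 150, so these counts of 0 do not show that such genes were spared.

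Over all 49 transcripts of the brush border list, the median log2 fold change at 47.2 µg/L was -0.15, with 32 below 0, against a median of 0 over all transcripts. EdgeR called 3 lower (ggt1b, the peptide transporter slc15a1a and the water channel aqp8a.1) and 0 higher. At an unadjusted p below 0.05, 12 were lower and 1 higher. For such unadjusted counts at 47.2 µg/L, here and below, no share over all transcripts is given. They describe the lists without a baseline. Without the 4 chosen here, the median was -0.11 over 45. The 39 of lysosome-rich enterocytes had a median of -0.20, with 0 called lower and 1, the protease gene lgmn, called higher. At an unadjusted p below 0.05, 6 of these were lower and 7 higher, so the list was mixed. The 37 of lipid absorption had a median of 0.08, with 0 called in either direction, and the 3 chosen here (cd36, mogat2 and fabp2) were on the low side of it. The 48 hepatocyte transcripts had a median of -0.14, with 36 below 0 and 0 called, while 8 were lower and 0 higher at an unadjusted p below 0.05. Their median was also below 0 at 3.38 µg/L (-0.104). It was 0.005 at 0.19, 0.053 at 0.74 and 0.025 at 10.2 µg/L. The 49 of skeletal muscle had a median of 0.01, with 24 below 0, and without the creatine kinases and the calcium pump it was also 0.01. The 62 clock transcripts had a median of -0.15 and 0 called, with 11 lower and 3 higher at an unadjusted p below 0.05. Their median was -0.22 at 0.19 µg/L, the other group that held only letters A, B and C. It was -0.061 at 0.74, -0.001 at 3.38 and -0.049 at 10.2 µg/L. The part of the letters in these medians was not tested.

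The lists of phototransduction and of photoreceptor structure had the lowest medians of the 25. Phototransduction held 0 of the 150, with 0.172% of the eligible transcripts. Photoreceptor structure held 0.667% of the 150 against 0.186%, and neuron and synapse 0.667% against 0.61%. The 41 transcripts of phototransduction, of which 0 were chosen, had a median of -0.26 with 33 below 0, and 10 were lower and 1 higher at an unadjusted p below 0.05. The 45 of photoreceptor structure and the visual cycle, of which abca4a was chosen, had a median of -0.23 with 34 below 0, and 7 were lower and 1 higher. The 144 of neuron and synapse, of which elavl3 was chosen, had a median of -0.18 with 99 below 0, and 15 were lower and 2 higher. EdgeR called 0 in each of these 3 lists. Their medians were also below 0 at 0.19 µg/L (-0.28, -0.26 and -0.17) and above 0 at 10.2 µg/L (0.22, 0.18 and 0.18). The lists of exocrine pancreas (0.39), cartilage, bone and collagen (0.44), immune cells (0.37) and lysosome (0.26) had medians above 0.

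The 23 libraries outside 47.2 µg/L gave a measure of co-variation that the choice at 47.2 µg/L did not use. Deviations of log2(CPM + 1) from the group means were correlated between transcripts. The libraries share depth and pool composition, so these values are descriptions without a test. The 105 pairs of intestinal transcripts had a median r of 0.40, against 0.01 over all pairs of eligible transcripts and 0.03 over all pairs of the 150. The 3 muscle transcripts had 0.86, and pairs of an intestinal with a muscle transcript 0.42. Liver pairs had 0.25 and pairs of nervous system and eye transcripts 0.02. Against the mean of the other intestinal transcripts, mep1a.1 had an r of 0.85, cd36 0.83 and ggt1b 0.70, while tmigd1 had 0.33 and mep1ba 0.37. In water and at the lower concentrations together, the intestinal transcripts thus varied together from pool to pool, and as much with the muscle transcripts. The median for the nervous system and eye group was near that over all pairs.

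Other features were set beside those of the eligible transcripts. The median length of the 150 was 2628 bases against 2954, and their median level 23.5 CPM against 23.2. Their median SD of log2(CPM + 1) over the water libraries was 0.24 against 0.19. A share of 72.7% was paired with a gene, against 80.1%. Of the paired ones, 58.7% were the only transcript of their gene in the table, against 60.1%. Total counts per library ranged from 13515478 to 27614956, and from 16481591 to 27614956 at 47.2 µg/L. The fragment length, taken from the deposited lengths and effective lengths, was 235.2 to 239.6 bp in water and 228.1 to 247.2 bp at 47.2 µg/L, so the ranges overlapped, while those at 0.19 µg/L (248.2 to 257.5 bp) and 0.74 µg/L (250.4 to 263.1 bp) lay above both. Its part in the levels was not tested.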

How the data were processed

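The authors deposited estimated counts per RefSeq transcript for 26 libraries, with TPM, transcript length and effective length per library. The submitters' processing notes name Trimmomatic 0.38, kallisto and DESeq2. The transcript index was not given in the sources used here, nor was its genome build. Per the file headers, the authors' comparison tables hold a mean of normalized counts (a signal), a log2 fold change, a test statistic (a score), a p-value and an adjusted p-value. These served only as a comparison.

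Counts were rounded and tested with edgeR 4.0.16 (robust quasi-likelihood, filterByExpr, TMM) in R 4.3.3 on all 26 libraries and 6 groups. P-values were two-sided and Benjamini-Hochberg adjusted over all transcripts. DESeq2 1.42.0 was the alternative test. Per the labels, each replicate held 20 embryos and exposure was in glass dishes. The labels do not say what the letters share, and p-values measure the spread between these pools. A floor of 3 counts was 0.109 to 0.222 CPM, and such limits cover counting error only. Gene names came from the RefSeq gene table, matched without version (55.1% of transcripts), and no sequence table was used.

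The members and lists were chosen with earlier results of these data known. Named transcripts were the 12 named ones with the largest gap, those in a gene list, those called, those at the limit, the 8 of highest level and the 6 whose other transcripts moved most. Transcripts named for their role group or as examples were added after their values had been seen. Deviations of same-letter libraries from their group means were correlated with those in water. They gave 0.164 to 0.383 at 0.74, 0.11 to 0.398 at 3.38 and 0.19 to 0.385 at 10.2 µg/L, above 0.1 in all 5 pairs at each. Replicate B at 3.38 µg/L correlated better with water replicate D (0.153) than with water replicate B (0.11). These values are a hint that the letters pair these groups with water, which the labels do not state. Same-letter correlations were 0.03 to 0.07 at 0.19 µg/L and 0.331, 0.095 and 0.056 at 47.2 µg/L, so not all pairs there were above 0.1. The fit of all libraries holds no term for the letter.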

Additional observations from a re-analysis of the deposited data

Results flagged for a closer look

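In 112 groups of 5 libraries (20 transcripts and 8 group means), 6 held a library whose distance from its nearest neighbour was large relative to the range of the group. Chance gives about 1 in 20. The pklr transcript stood at 57.84 CPM in water replicate C, below the other water libraries. The plp1b transcript stood at 20.59 CPM in replicate B at 10.2 µg/L and the fabp6 transcript at 322.4 CPM in replicate E at 10.2 µg/L, both above the rest of their group. Replicate A at 3.38 µg/L stood apart for ckma, at 4727 CPM, and for the mean of the muscle transcripts, at -0.139 log2 units from the water mean, both low. The mean of the intestinal transcripts was -0.109 in replicate B at 0.74 µg/L, below the other libraries of that group.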

How the results depend on the processing

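The count of transcripts called lower at 47.2 µg/L depended most on the test. It was 2 with edgeR, with RLE scaling and with no count filter, 41 with DESeq2, 49 in the authors' deposited table (a comparison added after seeing the data), 11 with a replicate block and 0 with water and 47.2 µg/L only. Leaving out each library in turn gave 1 to 3. Over all transcripts the replicate block raised the calls at 47.2 µg/L from 45 to 182. Same-letter libraries correlated above 0.1 with water in every pair at 0.74, 3.38 and 10.2 µg/L but in 1 of 3 pairs at 47.2 µg/L. There, replicates A and B correlated best with the water library of their letter and C did not. The letters are thus a hint from the data and not a known pairing. At 0.19, 0.74, 3.38 and 10.2 µg/L the count was 0 under each alternative, leaving out libraries included (0 to 0), except for 1 with DESeq2 at 3.38 µg/L. The other transcripts of the same genes gave 0 called lower under each alternative (0 to 0 leaving out libraries) and 1 with a replicate block. The cause of these differences was not tested.

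Membership depended on how the gap was computed. Of the 150, 148 remained with a pseudocount of 0.1, 143 with 5 and 136 with TMM-scaled CPM. Only 13 remained with a mean of 1 CPM or more, where 33887 transcripts compete, and 61 with a mean of 30 CPM or more, which were all 61 that reach that level. With the mean at 47.2 µg/L in place of the highest library, 45 remained, and leaving out 1 library at 47.2 µg/L kept 45 to 52. For the 41 named transcripts, no log2 fold change turned its sign under any alternative run, a direction that the selection fixed. Of the alternative values, 1244 kept their side of the threshold, 17 passed it and 10 lost it. All but 2 of the 41 were uncalled in the main fit, so most of the 1244 were uncalled values that stayed uncalled.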

Other observations

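The chosen transcripts included ihha and tncb, whose genes have known roles in cartilage and in matrix. The tissue these transcripts came from was not tested. The list of cartilage, bone and collagen genes held 0 chosen transcripts, and edgeR called 2 of its transcripts higher and 0 lower at 47.2 µg/L. The ihha transcript, which encodes the Indian hedgehog signal of growing cartilage, stood at 24.9 ± 0.415 CPM (SD, n = 3) at 47.2 µg/L and 29.4 ± 2.39 CPM (SD, n = 5) in water. The list of cartilage, bone and collagen genes had a median log2 fold change of 0.44 at 47.2 µg/L and 0.59 at 0.19 µg/L. The transcript of tncb, which encodes the matrix protein tenascin C, stood at 64.4% of water, and 5 of the 23 other libraries were as low. Both were chosen after their values had been seen. Of the metabolic enzymes outside the role groups, pgm1, a phosphoglucomutase, stood at 77.1% of water, tymp, thymidine phosphorylase, at 74.6% and the purine nucleoside phosphorylase gene pnp4b at 68.1%.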
